A study of Mus musculus with 16 samples.

Results

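The chemokine receptors Ccr4, Ccr8, Ccr6, Ccr9, Cxcr3, Cxcr4, Cxcr5 and Cxcr6 were followed in mouse T cells that had been stimulated with and without a signal through CD28. They were taken by name, each with the probe that carries that single gene symbol. All 8 had exactly 1 such probe, and all 8 were among the 16427 genes tested. The cells were naive CD4+CD62LhiCD25- T cells sorted from the spleen and lymph nodes of B6 mice, either wild type (WT) or DEC1 knock-out (KO). Dec1, encoded by Bhlhe40, is a basic helix-loop-helix transcription factor. They were cultured for 24 h (1000000 cells per ml, DMEM, 10% serum) with latex beads that bore antibody to CD3 alone or to CD3 and CD28. The 4 groups were thus WT_CD3 (wild type, anti-CD3), WT_CD3CD28 (wild type, anti-CD3 plus anti-CD28), KO_CD3 and KO_CD3CD28 (the knock-out under the same stimuli), with 4 arrays each. No unstimulated cells were analysed here, and every group received anti-CD3. The labels call the mice DEC1 knock-out without saying how the allele was made or whether it is absent from T cells alone. They number the replicates 1 to 4 without saying that these were separate animals, and the spread that p-values rest on may therefore be partly technical.

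Chemokine receptors are G protein-coupled receptors of the cell surface that steer migrating leukocytes along gradients of small secreted ligands. Naive T cells circulate through lymphoid organs, and activation changes the set of receptors they carry. Ccr4 binds Ccl17 and Ccl22 and is found on skin-homing, helper type 2 and regulatory T cells, and Ccr8 binds Ccl1 and marks overlapping subsets. Ccr6 binds Ccl20 and is typical of helper type 17 cells, and Cxcr3 binds Cxcl9 and Cxcl10 and is typical of helper type 1 cells. Cxcr4 binds Cxcl12 and acts in retention in bone marrow and lymphoid tissue. Cxcr5 draws follicular helper cells to Cxcl13, Ccr9 draws cells to Ccl25 in the gut, and Cxcr6 binds Cxcl16. The design asks how Dec1 bears on the activation of naive CD4+ T cells. For these receptors that gives 5 comparisons: the CD28 effect (anti-CD3 plus anti-CD28 minus anti-CD3) in each genotype, the genotype difference (knock-out minus wild type) under each stimulus, and the interaction of both.

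The values are log2 signals of Affymetrix arrays made with RMA, so a difference of 1 is a doubling. They do not allow the level of 1 gene to be set against that of another. Array medians were 6.64 to 6.97. A probe was called near background in a group where at least 3 of its 4 arrays were at or below the background limit, which is the 95th percentile of 1210 probes for olfactory and vomeronasal receptors on that array (6.22 to 6.71 over the arrays). Ccr9 and Cxcr5 were near background in all 4 groups, Ccr6 in both anti-CD3 groups and Ccr8 in KO_CD3. Differences were tested with limma over all 16427 genes, and a gene was called at a Benjamini-Hochberg adjusted p under 0.05. The number of arrays limits the precision.

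Bhlhe40 itself averaged 7.56 ± 0.42 in WT_CD3 and 9.51 ± 0.71 in WT_CD3CD28 (SD, n = 4) and was near background in both knock-out groups. It was at least 1.9-fold lower in the knock-out under anti-CD3 (limma adjusted p = 0.00548) and at least 8.26-fold lower under anti-CD3 plus anti-CD28 (adjusted p = 3.76e-06). These bounds set the mean of the brighter group against the background floor of the dimmer one. All 10 T cell markers with a probe were above background in all 4 groups, as were all 5 naive T cell markers. Of the B cell markers 7 of 11 were near background in all groups, of the myeloid and dendritic cell markers 7 of 12, and of the CD8 T and NK cell markers 4 of 9. Cd8b1 ranged from 8.52 to 9.84 and Foxp3, the factor of regulatory T cells, from 7.72 to 9.06 in cells sorted as CD25 negative. On each array's deviation from its group mean, the first principal component (39.6% of the variance) put replicates 1 and 2 of all 4 groups on one side and replicates 3 and 4 on the other. No label gives a batch for this, and calls among the 8 receptors that change in either set alone are named below. Xist, the RNA of the inactive X chromosome, was at 10.44 to 11.36 on 6 arrays and at 5.09 to 5.80 on 10. The high ones were wild-type replicate 1 and knock-out replicates 2 and 4, under either stimulus.

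Adding anti-CD28 raised Ccr4 and Ccr8 and lowered Cxcr4 and Cxcr6 in both genotypes. In wild type 3 receptors were called higher (Ccr4, Ccr8 and Ccr6) and 2 lower (Cxcr4 and Cxcr6). In the knock-out 2 were called higher (Ccr4 and Ccr8) and 3 lower (Cxcr4, Cxcr6 and Ccr9, the last near background). Of all genes tested, 29.0% were called in wild type (16% higher, 13.0% lower) and 38.0% in the knock-out (20.4% higher, 17.6% lower). The median absolute difference of the 8 receptors was 0.67 in wild type and 0.73 in the knock-out on the log2 scale, beside 0.17 and 0.21 over all genes tested. The groups did not overlap for 5 of the 8 in either genotype, where 30.4% and 34.9% of all genes did not overlap. Since the 8 receptors were chosen with earlier results of these arrays known, these shares describe them and are no test.

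**Figure D1:**
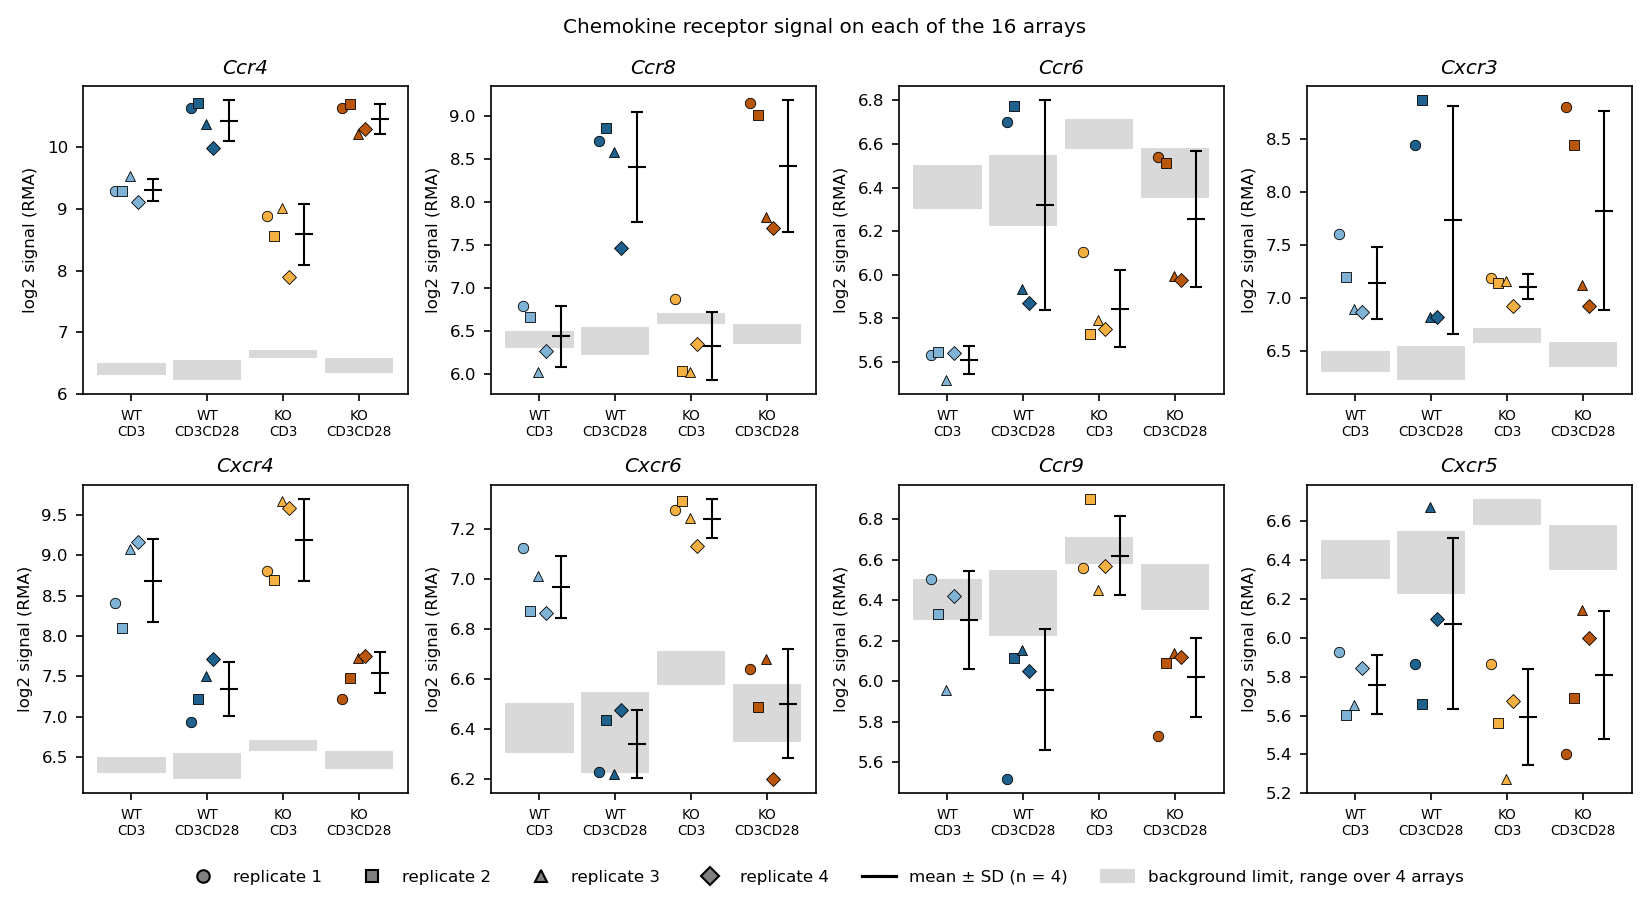
Log2 signal (RMA) of each receptor on the 16 arrays, by group on the x axis; points are single arrays shaped by replicate number, bars are the mean ± SD (n = 4), and the grey band is the range of the background limit over the 4 arrays of a group. Ccr4 and Ccr8 stand higher and Cxcr4 and Cxcr6 lower with anti-CD28, Cxcr3 and Ccr6 are highest in replicates 1 and 2 of the anti-CD3 plus anti-CD28 groups, and Ccr9 and Cxcr5 lie mostly in or under the band.

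Ccr4 was well above background on every array. In wild type it measured 9.29, 9.29, 9.53 and 9.10 in replicates 1 to 4 under anti-CD3, and 10.64, 10.72, 10.37 and 9.98 with anti-CD28. In the knock-out it measured 8.88, 8.56, 9.01 and 7.90 under anti-CD3, and 10.62, 10.69, 10.21 and 10.29 with anti-CD28. Every array with anti-CD28 lay above every array without it, and the 4 knock-out arrays under anti-CD3 were the lowest of all 16. Group means were 8.59 ± 0.50 in KO_CD3, 9.31 ± 0.18 in WT_CD3, 10.43 ± 0.33 in WT_CD3CD28 and 10.45 ± 0.24 in KO_CD3CD28 (SD, n = 4), and the last pair in this order did not differ beyond its spread. The rise with anti-CD28 was 2.18-fold in wild type (log2 1.12, SE 0.21, limma adjusted p = 0.000494) and 3.64-fold in the knock-out (log2 1.86, SE 0.21, adjusted p = 2.01e-06). It was seen in 4 of 4 same-numbered pairs of each genotype. In the knock-out 1.18% of genes rose by more, and in wild type 2.23%. With replicates 3 and 4 alone the wild-type rise was 0.86 and was not called (adjusted p = 0.0873).

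Ccr8 was at or near background under anti-CD3 and clearly above it with anti-CD28. Its wild-type values were 6.79, 6.67, 6.03 and 6.27 under anti-CD3, of which 2 exceeded the background limit, and 8.72, 8.86, 8.59 and 7.47 with anti-CD28. The knock-out gave 6.87, 6.04, 6.03 and 6.35, and 9.15, 9.02, 7.83 and 7.70. No array with anti-CD28 fell into the range of those without it. The rise was 3.92-fold in wild type (log2 1.97, SE 0.34, limma adjusted p = 0.000285). In the knock-out the log2 difference was 2.10 (SE 0.34, adjusted p = 0.000108), given as a rise of at least 3.29-fold, since KO_CD3 was near background. The wild-type fold is no such bound, although only 2 arrays of WT_CD3 exceeded the limit, so these folds are not like measures. Within the anti-CD28 groups replicates 1 and 2 exceeded replicate 4 in both genotypes, and the group means of 8.41 ± 0.64 in wild type and 8.42 ± 0.77 in the knock-out (SD, n = 4) did not differ beyond this spread. In wild type 0.67% of genes rose by more.

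Ccr6 was near background in both anti-CD3 groups and exceeded the limit on only 2 arrays of each anti-CD28 group. Its wild-type values were 5.63, 5.65, 5.52 and 5.64 under anti-CD3 and 6.70, 6.77, 5.94 and 5.87 with anti-CD28. The knock-out values were 6.11, 5.73, 5.79 and 5.75, and 6.54, 6.51, 5.99 and 5.98. In both genotypes replicates 1 and 2 carried the higher signal with anti-CD28, while replicates 3 and 4 stayed under the limit. Means were 5.61 ± 0.06 in WT_CD3 and 6.32 ± 0.48 in WT_CD3CD28 (limma adjusted p = 0.00821), and 5.84 ± 0.18 and 6.26 ± 0.31 in the knock-out (adjusted p = 0.0966; SD, n = 4). No fold is given, since the anti-CD3 groups have only a bound. The replicate number as a block brought the knock-out difference to an adjusted p of 0.0234, a random block within genotype to 0.0515, and replicates 1 and 2 alone to 0.00179. With replicates 3 and 4 alone the wild-type call was lost (adjusted p = 0.0837).

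Cxcr4 fell in both genotypes. Its wild-type signal was 8.40, 8.10, 9.07 and 9.17 under anti-CD3 and 6.94, 7.21, 7.50 and 7.72 with anti-CD28. The knock-out signal was 8.81, 8.70, 9.67 and 9.58, and 7.22, 7.48, 7.73 and 7.75. Every array with anti-CD28 lay below every array without it, and within each group replicates 3 and 4 were above replicates 1 and 2. The fall was 2.54-fold in wild type (log2 -1.34, SE 0.26, limma adjusted p = 0.000652) and 3.12-fold in the knock-out (log2 -1.64, SE 0.26, adjusted p = 7.15e-05), and all arrays stayed above background. Means were 7.34 ± 0.34 in WT_CD3CD28, 7.55 ± 0.25 in KO_CD3CD28, 8.69 ± 0.52 in WT_CD3 and 9.19 ± 0.51 in KO_CD3 (SD, n = 4), and the genotypes overlapped under either stimulus. Only 0.688% of genes in wild type and 0.42% in the knock-out fell by more. The calls held in all 29 alternative analyses in both genotypes.

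Cxcr6 fell by a smaller step with little spread. In wild type it was 7.13, 6.88, 7.01 and 6.87 under anti-CD3 and 6.23, 6.44, 6.22 and 6.48 with anti-CD28, where 2 arrays were above background. The knock-out gave 7.28, 7.31, 7.25 and 7.13, and 6.64, 6.49, 6.68 and 6.20, with 3 of the last 4 above background. The stimuli did not overlap in either genotype. The differences were -0.63 (SE 0.11, limma adjusted p = 0.000209) and -0.74 (SE 0.11, adjusted p = 2.88e-05) on the log2 scale, and both were called in all 29 alternatives. In the RefSeq annotation (GRCm38.p6) Cxcr6 overlaps Fyco1, an adaptor of vesicle transport, whose own probe fell by 0.59 in wild type (SE 0.12, adjusted p = 0.00156) and by 0.70 in the knock-out (SE 0.12, adjusted p = 0.000267). No source used here says which strand the probes read, and the part of Fyco1 in the Cxcr6 signal was not tested.

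Cxcr3 divided the replicates rather than the groups. Under anti-CD3 it was 7.60, 7.20, 6.90 and 6.87 in wild type and 7.19, 7.14, 7.16 and 6.93 in the knock-out. With anti-CD28 it was 8.44, 8.86, 6.82 and 6.82 in wild type and 8.80, 8.44, 7.12 and 6.93 in the knock-out. Replicates 1 and 2 of both genotypes stood more than a log2 unit above replicates 3 and 4 with anti-CD28, and all 16 arrays were above background. Over all arrays the CD28 effect was 0.59 in wild type (95% interval -0.34 to 1.52, limma adjusted p = 0.362) and 0.71 in the knock-out (-0.22 to 1.64, adjusted p = 0.214). Fitted on replicates 1 and 2 alone it was 1.25 (adjusted p = 0.000216) and 1.45 (adjusted p = 4.56e-05). Fitted on replicates 3 and 4 alone it was -0.07 (adjusted p = 0.842) and -0.02 (adjusted p = 0.937). The difference between the sets was not tested. Of the arrays with high Cxcr3, wild-type replicate 1 and knock-out replicate 2 had high Xist. Wild-type replicate 2 and knock-out replicate 1 had low Xist. The part of the Xist level in this split was not tested.

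Other values parted the same anti-CD28 arrays. Tbx21, the helper type 1 factor known to act on Cxcr3, was at 7.37 to 7.81 in wild-type replicates 1 and 2 against 7.15 to 7.19 in replicates 3 and 4, and at 7.33 to 7.36 against 7.12 to 7.15 in the knock-out. Rora, a factor of helper type 17 cells, was at 8.48 to 8.57 against 7.13 to 7.14 in wild type and at 8.17 to 8.21 against 6.85 to 7.10 in the knock-out. Eomes, a factor related to Tbx21, ran the other way, at 8.07 to 8.53 against 9.09 to 9.32 in wild type and 7.57 to 7.62 against 8.53 to 8.64 in the knock-out. The summed signal of the CD8 T and NK cell markers was also lower in replicates 1 and 2 (10.30 to 10.42 against 10.60 to 10.62 in wild type, 10.38 to 10.39 against 10.66 to 10.68 in the knock-out). So was that of the regulatory T cell markers (10.20 to 10.30 against 10.68 to 11.04, and 10.36 to 10.48 against 10.64 to 10.71). Not every marker in these sums parted the arrays. Cd8b1 did in both genotypes, but Cd8a did not (7.51 to 7.63 against 7.52 to 7.66 in wild type). Foxp3 did in wild type but not in the knock-out (8.24 to 8.53 against 8.27 to 8.44). The part of these values in the Cxcr3 signal was not tested.

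**Figure D2:**
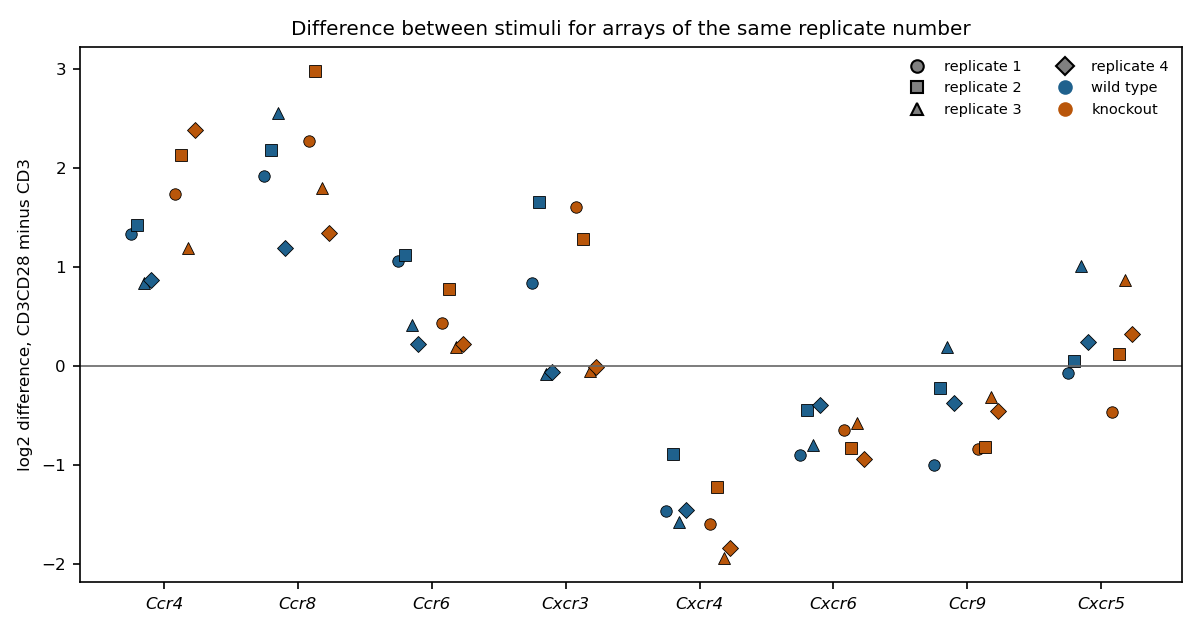
Log2 difference between anti-CD3 plus anti-CD28 and anti-CD3 for each pair of arrays with the same replicate number, per receptor on the x axis; points are single pairs, shaped by replicate number and coloured by genotype. The 4 pairs of replicates 1 and 2 lie above 0 for Cxcr3 and those of replicates 3 and 4 lie at it, whereas all 8 pairs agree in sign for Ccr4, Ccr8, Ccr6, Cxcr4 and Cxcr6.

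Ccr9 and Cxcr5 gave signals that the arrays could not part from background in any group. Ccr9 was 6.51, 6.33, 5.96 and 6.42 in WT_CD3, 5.52, 6.12, 6.15 and 6.05 in WT_CD3CD28, 6.56, 6.90, 6.45 and 6.57 in KO_CD3, and 5.73, 6.09, 6.14 and 6.12 in KO_CD3CD28. The knock-out groups did not overlap (means 6.62 ± 0.19 and 6.02 ± 0.19, SD, n = 4; limma adjusted p = 0.00476), the wild-type groups did (6.30 ± 0.24 and 5.96 ± 0.30, adjusted p = 0.104), and no fold is given for either. Leaving out replicate 3 of WT_CD3 brought the wild-type adjusted p to 0.0325, replicates 1 and 2 alone to 0.0319, and the knock-out call was lost with replicates 3 and 4 alone (0.128). Cxcr5 was 5.93, 5.60, 5.66 and 5.85 in WT_CD3, 5.86, 5.66, 6.67 and 6.10 in WT_CD3CD28, 5.86, 5.56, 5.27 and 5.67 in KO_CD3, and 5.40, 5.69, 6.14 and 6.00 in KO_CD3CD28. Its groups overlapped in both genotypes (adjusted p = 0.259 and 0.402), with replicate 3 of WT_CD3CD28 the highest of the 16 arrays. Cxcr5 overlaps Bcl9l, a Wnt pathway cofactor, in the annotation, and the Bcl9l probe fell by 0.65 (SE 0.10, adjusted p = 6.37e-05) and by 0.61 (SE 0.10, adjusted p = 8.1e-05).

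**Figure D3:**
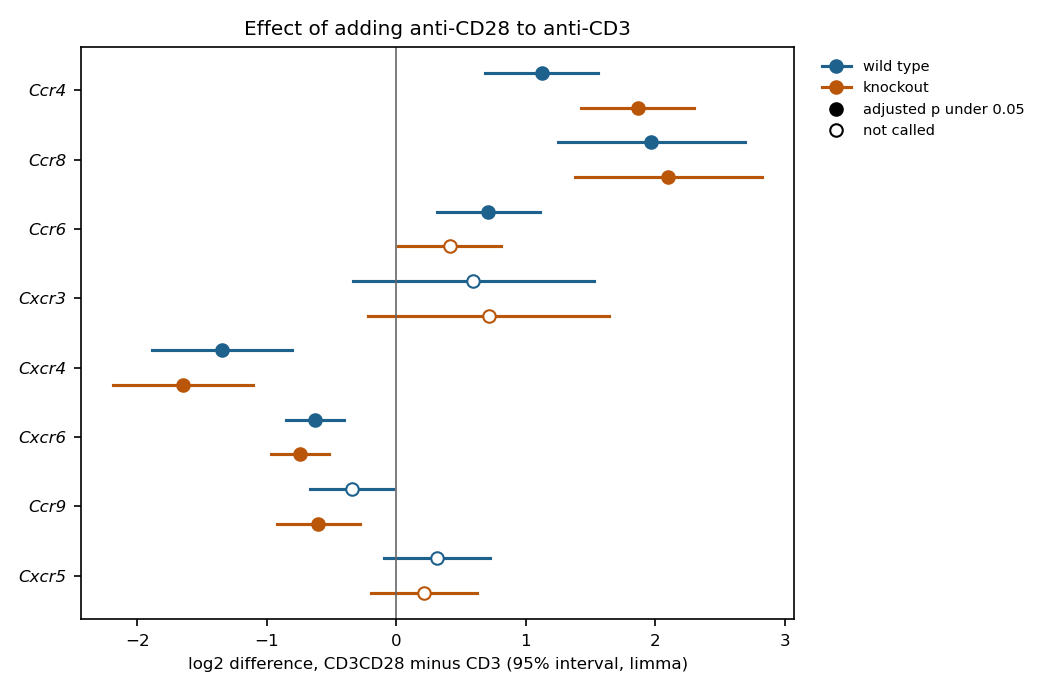
CD28 effect on each receptor, as the log2 difference between anti-CD3 plus anti-CD28 and anti-CD3 on the x axis with its 95% interval from limma, for wild type and knock-out; filled points have an adjusted p under 0.05. Ccr4 and Ccr8 lie clearly above 0 and Cxcr4 and Cxcr6 below it in both genotypes, and the intervals of Cxcr3 and Cxcr5 include 0 in both.

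The promoters of the most raised receptors, Ccr4 and Ccr8, and of the lowered ones, Cxcr4 and Cxcr6, are shown because these pairs moved together in opposite directions. Each line is the 250 bases before a start site in RefSeq (GRCm38.p6), read 5′ to 3′ on the strand of the gene. The Ccr4 window lies inside the annotated span of that gene (chr9:114490316-114505476), so its start site is not the outer 5′ end of the span. Capitals mark CANNTG, the E-box class that basic helix-loop-helix factors bind, and TGANTCA, the AP-1 motif. The windows are chr9:114496545-114496794 (minus strand) for Ccr4, chr9:120091883-120092132 (plus strand) for Ccr8, chr1:128592300-128592549 (minus strand) for Cxcr4 and chr9:123806227-123806476 (plus strand) for Cxcr6.
Ccr4: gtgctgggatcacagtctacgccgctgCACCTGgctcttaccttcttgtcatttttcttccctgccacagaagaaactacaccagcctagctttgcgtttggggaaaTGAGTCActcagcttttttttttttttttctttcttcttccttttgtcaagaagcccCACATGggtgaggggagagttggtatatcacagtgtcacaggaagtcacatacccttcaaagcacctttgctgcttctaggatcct
Ccr8: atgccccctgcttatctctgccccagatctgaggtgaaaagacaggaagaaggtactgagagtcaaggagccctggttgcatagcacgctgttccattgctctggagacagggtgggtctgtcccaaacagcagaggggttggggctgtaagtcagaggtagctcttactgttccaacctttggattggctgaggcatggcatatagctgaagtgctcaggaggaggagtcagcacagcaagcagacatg
Cxcr4: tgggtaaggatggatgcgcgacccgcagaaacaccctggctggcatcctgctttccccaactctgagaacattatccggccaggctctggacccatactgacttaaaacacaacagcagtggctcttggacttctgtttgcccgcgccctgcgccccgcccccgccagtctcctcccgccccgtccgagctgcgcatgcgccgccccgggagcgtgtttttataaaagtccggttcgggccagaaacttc
Cxcr6: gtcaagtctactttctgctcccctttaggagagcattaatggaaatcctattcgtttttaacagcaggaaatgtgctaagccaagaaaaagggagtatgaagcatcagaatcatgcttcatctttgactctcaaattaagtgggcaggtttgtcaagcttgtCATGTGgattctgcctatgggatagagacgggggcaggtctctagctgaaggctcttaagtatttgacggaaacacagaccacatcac
The Ccr4 window held 2 CANNTG matches, CACCTG and CACATG, and 1 TGANTCA match whose first base is at -143 from the start. The Cxcr6 window held 1 CANNTG match, CATGTG at -88. Neither motif was found in the windows of Ccr8 and Cxcr4. Promoter entries were found for 7 of the 8 receptors (all but Cxcr5), and both strands were searched. CANNTG occurred in 5 of these 7 and in 66.22% of 32851 promoter windows of the same length, TGANTCA in 1 of 7 and in 6.75%, and GGAAA, the core of NFAT sites, in 4 of 7 and in 55.57%. CACGTG, the E-box that Dec1 binds and itself a case of CANNTG, occurred in 0 of 7 and in 6.02% of all windows. The shares over all promoters count single windows, whereas a receptor was counted if any of its windows held a match. Ccr6 had more than 1 window. The one at chr17:8235793-8236042 held 0 CANNTG matches, and each held 1 GGAAA match. A match describes these letters only and is no sign of binding.

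No receptor passed the test between genotypes. Under anti-CD3, 0 of the 8 were called, with 1.03% of all genes called (0.28% higher, 0.749% lower), and the 3 whose groups did not overlap were Ccr4, Cxcr6 and Ccr6, where 14.7% of all genes did not overlap. The arrays themselves also stood apart here. The background limit was 6.304 to 6.504 in WT_CD3 and 6.578 to 6.714 in KO_CD3. The array medians were 6.798 to 6.854 and 6.873 to 6.966. The part of this shift in the differences of dim probes such as Ccr6, Cxcr6 and Ccr9 was not tested. Before adjustment 2 of the 8, Ccr4 and Cxcr6, had a limma p under 0.05. Ccr4 was lower in the knock-out by 0.72 on the log2 scale (SE 0.21, 95% interval -1.15 to -0.28, adjusted p = 0.086), and the lowest wild-type array at 9.10 exceeded the highest knock-out array at 9.01. The replicate number as a block gave an adjusted p of 0.0137 for Ccr4 and of 0.0215 for Cxcr4, which was higher in the knock-out by 0.50 (SE 0.26, adjusted p = 0.231 without the block). Taken within genotype, as a random block, the replicate number left both uncalled (adjusted p = 0.0858 and 0.208). Xist shows that same-numbered arrays of the genotypes differ (high in wild-type replicate 1, low in knock-out replicate 1). The first block also raised the number of genes called from 169 to 1954. Leaving out replicate 3 of KO_CD3 brought Ccr4 to an adjusted p of 0.044, and replicates 1 and 2 alone to 0.0161. Replicates 3 and 4 alone gave 0.225, and leaving out other arrays gave up to 0.245, with a difference as small as -0.49. Ccr4 was called in 3 of 29 alternatives. Cxcr6 was higher in the knock-out by 0.27 (SE 0.11, 95% interval 0.05 to 0.50, adjusted p = 0.143). For Ccr8, Ccr9, Cxcr3 and Cxcr5 the differences were -0.12, 0.32, -0.04 and -0.17, with adjusted p from 0.21 to 0.964, and Ccr6 (0.24, adjusted p = 0.43) was near background in both groups.

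With anti-CD28 the receptors ran at the same means in both genotypes within their spread. No receptor was called and none had groups that did not overlap, where 0.00609% and 2.75% of all genes did. The limma differences ranged from -0.26 for Cxcr5 to 0.20 for Cxcr4, each with an adjusted p of 0.999 and 0 of the 8 under 0.05 before adjustment, and the 95% interval for Ccr4 was -0.41 to 0.46. The interval for Cxcr3 was wide, at -0.85 to 1.01, since its replicates lay apart. A missed threshold does not show that the genotypes are alike.

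The CD28 effect on Ccr4 was larger in the knock-out by 0.74 on the log2 scale (SE 0.29, 95% interval 0.12 to 1.36). This interaction was not called by limma (adjusted p = 0.905), with 0.0% of all genes called. Before adjustment only Ccr4 of the 8 had a limma p under 0.05, and the share of all genes under that limit was not counted. For the other 7 receptors the interaction lay between -0.30 and 0.13, with adjusted p from 0.907 to 0.981. The comparisons share arrays, since the anti-CD3 groups enter both a CD28 effect and a genotype difference, so the lower Ccr4 signal of KO_CD3 enters all 3 of its values. The summed signal of the proliferation markers moved with it, at 9.49 to 10.65 in KO_CD3 against 10.78 to 11.74 in WT_CD3. So did that of the 7 regulatory T cell markers, at 10.01 to 10.23 against 10.25 to 10.52. The median difference of the 6 tested among them was -0.03, with 0 called. The sum of the CD8 T and NK cell markers ran the other way, at 10.78 to 11.48 in KO_CD3 against 10.51 to 10.84 in WT_CD3. Its single markers were split. Klrd1 averaged 10.28 in KO_CD3 against 9.36 in WT_CD3, and Cd8a and Prf1 were also higher in KO_CD3. Cd8b1 (8.67 against 8.80) and Nkg7 (6.76 against 7.14) were lower there. The median difference of the 5 tested in this list was 0.22, with 0 called. The part of any of these sums in the Ccr4 difference was not tested.

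**Figure D4:**
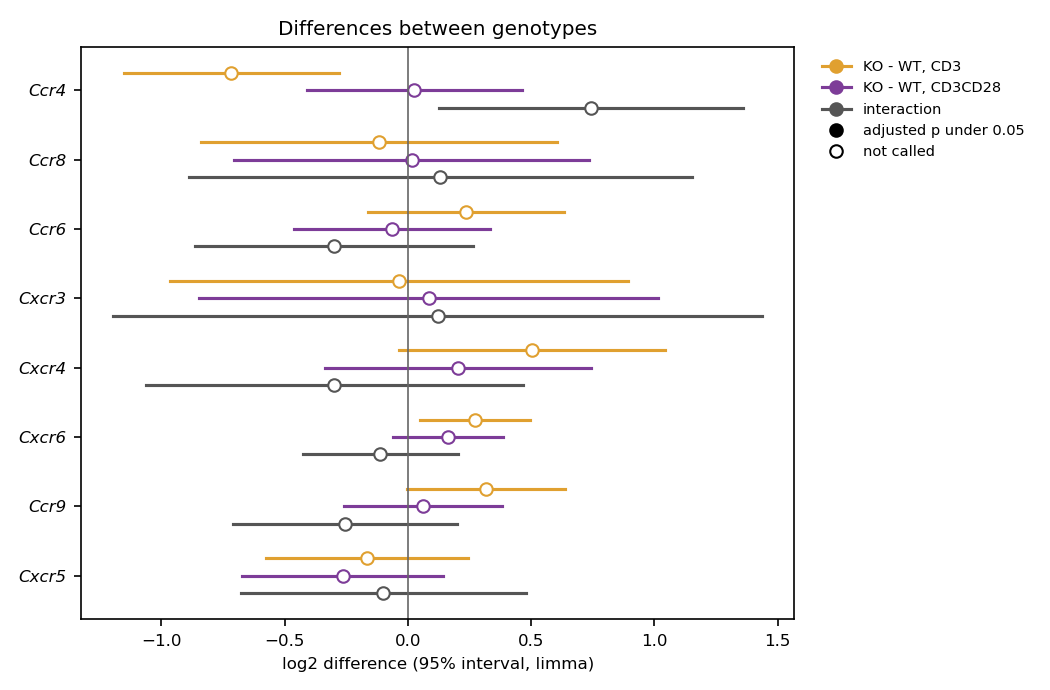
Log2 difference between knock-out and wild type for each receptor under anti-CD3 and under anti-CD3 plus anti-CD28, and the interaction of genotype and CD28, with 95% intervals from limma. No point is filled, since none had an adjusted p under 0.05; the intervals of Ccr4 under anti-CD3 and in the interaction and that of Cxcr6 under anti-CD3 leave out 0.

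Few of the other chemokine receptors were called. Of 15, 14 had a probe, 9 were tested, and 8 were near background in all groups. Over all genes tested, 29.0% were called in wild type and 38.0% in the knock-out. Their median CD28 effect was -0.07 in wild type and -0.09 in the knock-out, beside -0.03 and -0.06 over all genes. In wild type 1 was called lower: Ccr7, which guides naive cells into lymph nodes, fell by 0.38 (SE 0.13, limma adjusted p = 0.0342). That call was lost with arrays centred on their medians (adjusted p = 0.165) and without any 1 of the 4 WT_CD3 arrays or replicates 1 or 4 of WT_CD3CD28 (adjusted p from 0.0528 to 0.111), and with replicates 3 and 4 alone (0.185). In the knock-out 2 fell: Cxcr1, a receptor of neutrophil attractants, from a mean of 7.17 to 6.44, which is near background (adjusted p = 7.57e-05), and the scavenging receptor Ackr4 by 0.34 (SE 0.10, adjusted p = 0.0122). The Ackr4 difference was -0.22 with quantile normalization (adjusted p = 0.101), -0.21 with median centring (0.122) and -0.25 with replicates 3 and 4 alone (0.173). Cxcr1 was also higher in the knock-out under anti-CD3 by 0.56 (SE 0.11, adjusted p = 0.0351), which was lost without any 1 of 5 arrays (replicates 1, 2 and 3 of WT_CD3, replicates 1 and 2 of KO_CD3; adjusted p from 0.0524 to 0.141) and with replicates 3 and 4 alone (0.226). That call was also lost with quantile normalization (adjusted p = 0.0501), Xist as a covariate (0.0661) and only the 2 groups compared (0.0649).

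Transcripts of the ligands were mostly dim in these cells. All 12 had a probe, 11 were tested, and 8 were near background in all groups. The shares of all genes tested that were called were 29.0% in wild type and 38.0% in the knock-out. In wild type 0 were called by limma, and in the knock-out Ccl20, the ligand of Ccr6, was called lower (adjusted p = 0.00716) at means of 6.54 and 6.12, both near background. The medians were -0.08 in both genotypes. With the replicate block 1 ligand was called lower in wild type, and in the knock-out 1 higher and 2 lower.

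Of the genes that carry the signal inward, from Gi proteins to Rac and its exchange factors, 17 of 18 were tested and all 17 were above background throughout. In wild type 2 were called higher and 3 lower, in the knock-out 3 higher and 2 lower, and the medians were -0.08 and -0.07. Gng2, a G protein gamma subunit, rose by 0.52 in wild type (SE 0.12, limma adjusted p = 0.00385) and by 0.90 in the knock-out (SE 0.12, adjusted p = 2.22e-05). Ptk2b, the kinase Pyk2, fell by 0.83 in wild type (SE 0.17, adjusted p = 0.00126), and Dock2, the Rac exchange factor of lymphocytes, fell by 0.61 in the knock-out (SE 0.14, adjusted p = 0.00273). Both also had a lower mean with anti-CD28 in the other genotype. Ptk2b averaged 10.19 in KO_CD3 and 9.54 in KO_CD3CD28, and Dock2 averaged 11.55 in WT_CD3 and 11.07 in WT_CD3CD28. With the replicate block 3 were called higher and 5 lower in wild type, and with quantile normalization 1 and 5. The Gng2 call in wild type was lost with replicates 1 and 2 alone (adjusted p = 0.0848). The Dock2 call in the knock-out was lost with replicates 3 and 4 alone (adjusted p = 0.243).

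Genes that shut chemokine receptors off, namely the RGS proteins, the GRK kinases and the arrestins, included several that fell with anti-CD28. Of 14, 10 were tested. In wild type 8 were called lower and 0 higher, and in the knock-out 7 lower and 1 higher, with medians of -0.43 and -0.46. Among all genes tested 13.0% were called lower in wild type and 17.6% in the knock-out. Arrb1, beta-arrestin 1, fell by 1.03 (SE 0.15, limma adjusted p = 7.01e-05) and by 0.97 (SE 0.15, adjusted p = 7.73e-05). Rgs3 fell by 0.62 in wild type (SE 0.10, adjusted p = 0.000158) and Rgs2 by 1.18 in the knock-out (SE 0.16, adjusted p = 2.22e-05). Each also had a lower mean with anti-CD28 in the other genotype. Rgs3 averaged 8.59 in KO_CD3 and 8.13 in KO_CD3CD28, and Rgs2 averaged 8.16 in WT_CD3 and 7.18 in WT_CD3CD28. With arrays centred on their medians the lower calls were 4 in each genotype, and they were 2 in the knock-out with replicates 3 and 4 alone. Rgs1, which was lower in the knock-out under anti-CD3, at means of 8.92 against 10.31 (log2 -1.39, SE 0.26, adjusted p = 0.0236), rose with anti-CD28 in the knock-out by 1.57 (adjusted p = 0.000115). The genotype call of Rgs1 was lost without any 1 of 5 arrays (replicates 1, 2 and 3 of WT_CD3, replicates 1 and 2 of KO_CD3; adjusted p from 0.0572 to 0.088). With replicates 3 and 4 alone its difference was -0.69 and was not called (adjusted p = 0.236). Nor was it called with only the 2 groups compared (adjusted p = 0.0669).

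Among the other receptors that guide lymphocytes, all 8 were tested, with 5 called lower and 1 higher in wild type and 6 lower and 1 higher in the knock-out. S1pr1, which lets T cells leave lymph nodes, fell by 2.17 in wild type (SE 0.31, limma adjusted p = 5.72e-05) and by 2.28 in the knock-out (SE 0.31, adjusted p = 2.11e-05). S1pr4, a second sphingosine 1-phosphate receptor, fell by 1.45 (SE 0.14, adjusted p = 8.99e-07) and by 1.44 (SE 0.14, adjusted p = 5.44e-07). The medians were -0.72 and -0.53. Ptger4, a prostaglandin E2 receptor, was the member called higher, by 0.45 (adjusted p = 0.022) and 0.69 (adjusted p = 0.000827), and it was named after its value was seen. With quantile normalization the higher call in wild type was lost. With arrays centred on their medians the lower calls in the knock-out were 4.

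Transcription factors known to act on these receptor genes gave 2 higher and 5 lower calls among 13 tested in wild type and 1 and 5 in the knock-out, with medians of -0.14 and -0.20. Beside these, 29.0% of all genes tested were called in wild type and 38.0% in the knock-out. Bcl6, the factor of follicular helper cells, fell by 1.88 in wild type (SE 0.17, limma adjusted p = 4.44e-07) and fell by 1.83 in the knock-out (SE 0.17, adjusted p = 2.82e-07). Klf2, which drives S1pr1, fell by 1.15 (SE 0.14, adjusted p = 1.47e-05) and by 1.30 (SE 0.14, adjusted p = 2.03e-06). With quantile normalization or median centring the lower calls in wild type were 3.

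**Figure D5:**
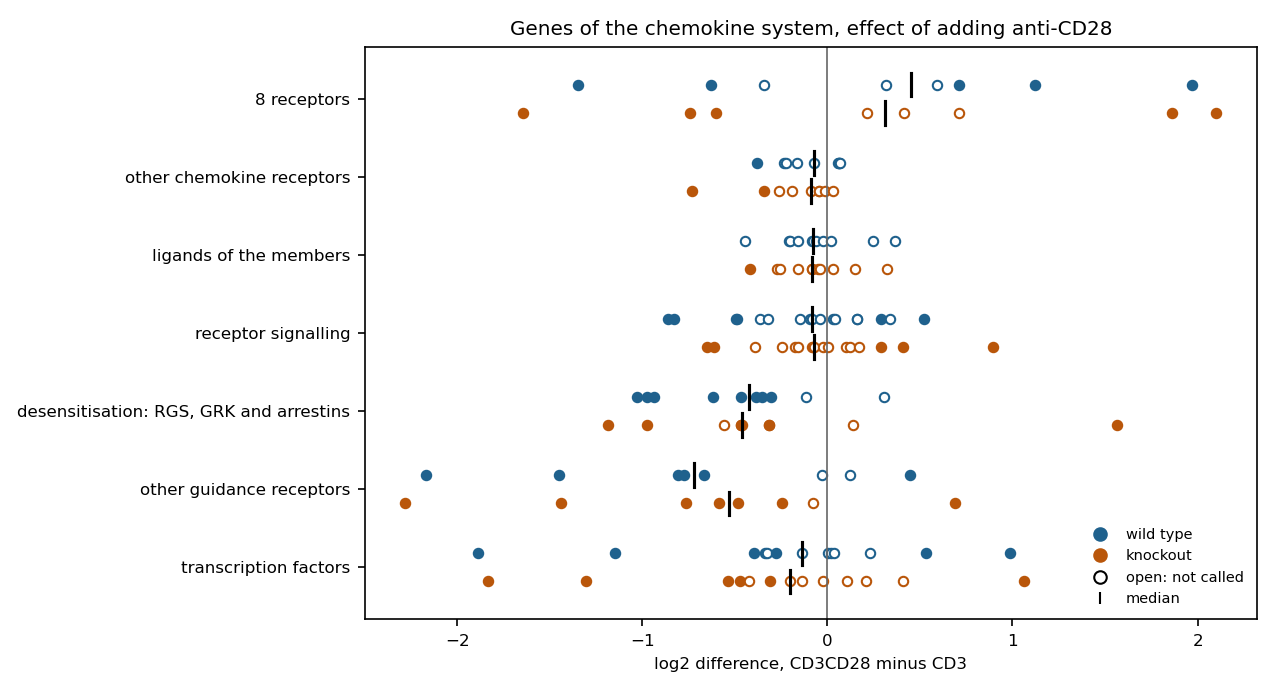
CD28 effect (log2 difference, x axis) of each tested gene in the 8 receptors and 6 lists of the chemokine system, for wild type and knock-out; filled points have an adjusted p under 0.05 in limma and ticks are medians. The 8 receptors spread to both sides of 0, while the medians of the desensitisation genes and the other guidance receptors lie at -0.72 to -0.43 in both genotypes.

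The genes whose log2 level ran most closely with each receptor over the 16 arrays are given as a description, since the arrays share the stimuli and the replicate sets. Ccr4 ran closest with Eif2b1 (Pearson r = 0.993), a subunit of a translation initiation factor, Atic (0.99), an enzyme of purine synthesis, and Psat1 (0.987), an enzyme of serine synthesis. Ccr8 ran with Tmem109 (0.980), Bcl2l1 (0.979), which encodes the survival protein Bcl-xL, and Osbpl3 (0.978). Cxcr4 ran with Btg2 (0.987), an antiproliferative gene, Sike1 (0.978) and Atp6v1d (0.977), a subunit of the vacuolar proton pump. Cxcr6 ran with Galnt4 (0.953), Kmt2d (0.952), a histone methyltransferase, and Prg4 (0.947).

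Ccr6 and Cxcr3, both high in replicates 1 and 2 with anti-CD28, ran closest with other genes. Ccr6 ran with the chemokine gene Ccl4 (r = 0.966), Swap70 (0.954) and Ier3 (0.952), and Cxcr3 with Tnc (0.956), Il1r2 (0.951), a decoy receptor of interleukin 1, and Ccdc116 (0.947). Ccr9 ran with 1520401A03Rik (0.955), Adam12 (0.938) and the kinase gene Sgk1 (0.938). The closest to Cxcr5 were further off: Gata3 (0.802), the factor of helper type 2 cells, Rskr (0.771) and Pros1 (0.764).

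Marker signals of other cells moved with anti-CD28 as well. The summed B cell signal was 9.76 to 9.90 in WT_CD3 and 9.42 to 9.57 in WT_CD3CD28, and 9.69 to 10.00 and 9.51 to 9.57 in the knock-out groups. The summed myeloid signal was 10.05 to 10.11 and 9.65 to 9.73, and 10.03 to 10.46 and 9.69 to 9.73. Of the tested markers 4 of 9 B cell and 4 of 10 myeloid ones were called lower in wild type, and 6 of 9 and 6 of 10 in the knock-out, which became 1 and 3 with arrays centred on their medians. Of all genes tested 13.0% and 17.6% were called lower. In each group 8 or 9 of 11 B cell probes and 7 to 9 of 12 myeloid probes were near background, so part of these shifts is of dim probes. The T cell sum was 14.89 to 15.10 and 14.22 to 14.65 in wild type and 14.74 to 14.96 and 14.33 to 14.46 in the knock-out, with 7 and 5 of 10 markers called lower. The CD8 T and NK cell list had 3 of 5 called higher and 2 lower in both genotypes, and the proliferation list 7 of 7 higher. In bulk RNA, fewer cells of a type and less RNA per cell cannot be told apart, and the part of any of these markers in the receptor signals was not tested.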

How the data were processed

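Total RNA of 16 mouse T cell samples (4 groups of 4) was measured on Affymetrix arrays. The authors deposited log2 signals that RMA had background-corrected, normalized and summarized, per the submitters' processing notes. RNA was extracted with Trizol and biotin-labelled, per the labels' protocols. The genome build of the array design was not given in the sources read. The file holds 35556 probes with values from 1.84 to 13.99 and 0 missing. A platform table supplied with the series listed 23410 probes, 21789 with 1 symbol and 1621 with several, and 12146 probes stayed unnamed. Gene ids matched GRCm38.p6 for 21698 probes and changed 0 symbols. A probe was kept (17930 in all) where 4 or more arrays exceeded their own 25th percentile, and the brightest stood for each of 16427 genes.

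A mean per group was fitted with limma 3.58.1 (R 4.3.3; 12 residual degrees of freedom, 4.92 prior), and p-values were Benjamini-Hochberg adjusted over all genes. Figures and summaries used Python 3.11.15, pandas 2.3.3, numpy 2.4.6 and matplotlib 3.10.9. The fit was tested on simulated data.

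The main fit had no block and treated the arrays as unpaired. In all same-numbered pairs the deviations from the group means correlated (0.1567 to 0.5865). Arrays of different number were not compared, so these values do not part a pairing from the split of the replicate sets. Across the genotypes, Xist differed between same-numbered arrays in some pairs. A fit with the replicate number as a block (9 residual degrees of freedom) stands beside a result where it changes a call.

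The receptors, lists and alternatives were chosen with earlier results of these data known. Genes named are the 8 receptors, up to 2 called genes of smallest p per list and comparison, the 3 closest correlates per receptor, and Bhlhe40. Others were chosen after their values were seen (Tbx21, Eomes, Rora, Cd8a, Cd8b1, Klrd1, Nkg7, Prf1, Foxp3 and Ptger4) or for overlapping a receptor (Fyco1, Bcl9l). Some genes of the lists are not reported here. Promoter windows are the 250 bases before the start; bases after it were not used.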

Additional observations from a re-analysis of the deposited data

Results flagged for a closer look

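In 3 of 32 groups of 4 arrays tested over the 8 receptors, 1 array's gap to the nearest other array, divided by the range of the group, exceeded Dixon's 95% critical value, where chance gives about 1 in 20. Replicate 3 of WT_CD3 was the lowest for Ccr6 at 5.5161 (gap over range 0.899). Replicate 1 was the lowest for Ccr9 in WT_CD3CD28 at 5.5157 (0.837) and in KO_CD3CD28 at 5.7294 (0.885). All 3 signals are of probes near background in those groups.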

How the results depend on the processing

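The CD28 effects on Ccr8, Cxcr4 and Cxcr6 kept their direction and call in both genotypes under all 29 alternatives (other scaling, filters, variance models, array weights, replicate blocks, replicates 1 and 2 or 3 and 4 alone, Xist as a covariate, only the 2 groups compared, each array left out), as did that on Ccr4 in the knock-out. A filter at the array median dropped Ccr6, Ccr9 and Cxcr5. With replicates 3 and 4 alone, 3 receptors and 2650 genes were called in wild type and 2896 genes in the knock-out. Leaving out 1 array gave 5 to 6 receptors and 3947 to 5053 genes in wild type and 5 receptors and 5171 to 6541 genes in the knock-out. With median centring the all-gene median went from -0.03 to 0.06 (wild type) and from -0.06 to 0.07 (knock-out), and the share of higher calls from 55.1% to 69.3% and from 53.8% to 75.0%. Array weights gave Cxcr3 a call in wild type (1.11, adjusted p = 0.0315) and Ccr6 in the knock-out (adjusted p = 0.038).

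For the genotype under anti-CD3, 2 receptors were called with the replicate block and 1 with replicates 1 and 2 alone. The 169 genes became 261 with median centring, 597 with array weights, 1954 with the replicate block, 1388 with replicates 1 and 2 alone, 0 with replicates 3 and 4 alone, 49 with Xist and 5 with only the 2 groups. Leaving out 1 array gave 0 to 1 receptors and 7 to 452 genes there. With replicates 1 and 2 alone, 2 genes were called under anti-CD3 plus anti-CD28 and 80 for the interaction. Leaving out 1 array called 1 gene and 0 genes. The block changed no receptor call other than those given for Ccr4, Cxcr4 and Ccr6, and none of these gained calls was made with the random block within genotype.

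Values that changed sign were none of them called. With replicates 3 and 4 alone, Cxcr3 became -0.066 and -0.022 for the CD28 effect (wild type, knock-out) and 0.16 for the genotype under anti-CD3, Ccr8 0.042 there, -0.27 under anti-CD3 plus anti-CD28 and -0.31 for the interaction, and Ccr6 0.082 under anti-CD3 plus anti-CD28. With replicates 1 and 2 alone, the CD28 effect on Cxcr5 became -0.0052 and -0.17, and the genotype difference under anti-CD3 plus anti-CD28 -0.019 for Ccr4 and -0.035 for Cxcr3. With array weights, the genotype under anti-CD3 gave 0.024 for Ccr8 and 0.0705 for Cxcr3, that under anti-CD3 plus anti-CD28 -0.0098 for Ccr4 and -0.026 for Cxcr3, and the interaction -0.10 for Cxcr3 and 0.0021 for Cxcr4. With median centring, the genotype under anti-CD3 plus anti-CD28 gave -0.0196 for Ccr4 and -0.0303 for Ccr8.

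Leaving out 1 array, the genotype difference under anti-CD3 ranged from -0.30 to 0.0004 for Ccr8 and from -0.13 to 0.12 for Cxcr3. Under anti-CD3 plus anti-CD28 it ranged from -0.12 to 0.12 for Ccr4, -0.30 to 0.26 for Ccr8, -0.21 to 0.0875 for Ccr6, -0.0864 to 0.16 for Ccr9 and -0.24 to 0.46 for Cxcr3. The interaction ranged from -0.18 to 0.37 for Ccr8, -0.21 to 0.50 for Cxcr3 and -0.24 to 0.10 for Cxcr5. The cause of these changes was not tested. Signal over background limits what can be said of Ccr6, Ccr9 and Cxcr5.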
